A study of Mus musculus with 12 samples.

Results

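The guanylate-binding proteins (Gbp) are a family of large GTPases, and the 9 genes described here, Gbp2 to Gbp10, are the rows of the expression table that carry these names, out of 29428 genes in all. They were chosen by name, with earlier results of these data known, and all 9 passed the filter on low values that left 16127 genes for testing. The study asked how striatal cells with and without a Huntington's disease (HD) mutation respond to a neuroinflammatory stimulus, and measured poly(A) RNA by paired-end, stranded RNA-seq in 12 libraries. STHdhQ7/Q7 cells (labelled normal) and STHdhQ111/Q111 cells (labelled HD) are immortalized striatal cell lines from mice whose huntingtin gene carries 7 or 111 glutamine repeats. Each line was left nontreated (Q7-C and Q111-C) or was treated with 100 ng/mL interferon-gamma (IFNγ) and 5 µg/mL lipopolysaccharide (LPS) over 24 h (groups Q7-T and Q111-T), with 3 libraries per group. Each genotype is represented by a single line, so that genotype and other differences between the lines cannot be told apart, and both agents were given together, so that their effects cannot be separated. The study describes the libraries of a group as biological replicates. Neither it nor the labels say whether they came from separate cultures, and the p-values measure the spread between these libraries.

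IFNγ, the cytokine of activated T cells and natural killer cells, signals through its receptor and the kinases Jak1 and Jak2 to transcription factors that bind GAS elements in promoters, and induced factors such as Irf1 bind interferon-stimulated response elements (ISRE). Gbp genes are among the most strongly induced targets of this pathway. Their protein products bind and hydrolyse GTP, assemble on the vacuoles of intracellular microbes and on bacterial LPS, and promote the activation of inflammatory caspases there, together with the immunity-related GTPases (IRG). LPS itself is sensed at the cell surface by Tlr4 with Cd14 and Ly96, upstream of NF-κB.

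The mouse genes lie in separate clusters on chromosomes 3 and 5 (build GRCm38). The chromosome 3 cluster holds 4 members on the plus strand, Gbp5 (ENSMUSG00000105504, 142493978 to 142522344), Gbp7 (ENSMUSG00000040253, 142530342 to 142550149), Gbp3 (ENSMUSG00000028268, 142560026 to 142573209) and Gbp2 (ENSMUSG00000028270, 142620602 to 142638008). The chromosome 5 cluster holds 5 members on the minus strand, Gbp8 (ENSMUSG00000034438, 105014150 to 105053556), Gbp9 (ENSMUSG00000029298, 105077630 to 105110277), Gbp4 (ENSMUSG00000079363, 105115767 to 105139586), Gbp10 (ENSMUSG00000105096, 105215699 to 105239533) and Gbp6 (ENSMUSG00000104713, 105270702 to 105293696). The members differ in how safely reads can be assigned to them. Of all 50-base stretches in the annotated transcripts of Gbp10, 84.1% also occur in another gene, and the share is 70.7% for Gbp6, mostly with each other and with the overlapping gene Gm43302 on the same strand. The corresponding share is 18.1% for Gbp8 and 12.7% for Gbp7, and it lies between 1.44% (Gbp5) and 8.05% (Gbp9) for the other 5 members. The values of Gbp6 and Gbp10 are therefore uncertain, since reads could be split between them and Gm43302. In the GENCODE M21 annotation, 1 of 4 transcripts of Gbp8 and 1 of 4 transcripts of Gbp9 also start within 100 bases of the start of Gbp4, so that these 3 neighbours overlap.

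Promoter sequences from RefSeq (GRCm38.p6) were matched for 4 of the 9 members, which are the chromosome 3 genes Gbp2, Gbp3, Gbp5 and Gbp7. They are shown as the members with an entry in the reference used here, and the chromosome 5 members are named only. Capitals mark matches to an ISRE core (GAAA and GAAA with 2 bases of any kind between them), to a GAS element (TTC and GAA with 3 bases between them) or to an NF-κB form (GGGA and TTCC with 2 bases between them), searched on both strands. Bases that the GENCODE annotation places in an exon were left out, and for Gbp2, whose match falls at the very start of the annotated first exon, a stretch of 30 bases is given.
Gbp2, chr3:142620594-142620623, plus strand: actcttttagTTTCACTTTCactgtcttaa
Gbp3, chr3:142559794-142560025, plus strand: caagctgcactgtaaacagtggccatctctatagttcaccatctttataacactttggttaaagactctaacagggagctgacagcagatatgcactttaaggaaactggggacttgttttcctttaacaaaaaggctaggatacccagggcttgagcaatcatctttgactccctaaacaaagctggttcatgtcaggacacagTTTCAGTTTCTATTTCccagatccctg
Gbp5, chr3:142496684-142496899, plus strand: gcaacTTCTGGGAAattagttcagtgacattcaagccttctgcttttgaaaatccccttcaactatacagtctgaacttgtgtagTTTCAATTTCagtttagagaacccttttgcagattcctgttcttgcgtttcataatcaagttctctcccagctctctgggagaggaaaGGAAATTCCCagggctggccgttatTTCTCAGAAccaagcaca
Gbp7, chr3:142530086-142530335, plus strand: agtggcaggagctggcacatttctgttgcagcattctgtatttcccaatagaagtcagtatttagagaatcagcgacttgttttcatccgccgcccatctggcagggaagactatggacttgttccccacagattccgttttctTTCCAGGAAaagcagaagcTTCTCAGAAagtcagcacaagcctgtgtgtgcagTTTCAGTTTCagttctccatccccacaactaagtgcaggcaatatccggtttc

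The ISRE core was found in a window of each of the 4 genes, on the minus strand, whereas 3.43% of 32817 RefSeq promoter windows of 300 bases hold it. Counted from the RefSeq start, it lies at -59 to -50 in Gbp2, at -53 to -44 in Gbp7 and at -165 to -156 in Gbp5. Gbp3 holds a pair of overlapping matches, at -45 to -36 and at -39 to -30, in the window of its first RefSeq start, and no match to any of the searched letters in the window of a second start, at 142560356. The GAS letters occur at 2 places each in Gbp5 and Gbp7 (8.29% of all windows hold them). The NF-κB form occurs in Gbp5, at -77 to -68, and in Gbp2 just after the start (1.47% of all windows). These are matches of letters and not shown to be bound.

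Before the levels are described, the libraries are compared. The totals of estimated counts ran from 57505990 to 96417834. Replicate 2 of Q7-T stands apart, with 22.9% of its counts in its 50 most abundant genes and a TMM scaling factor of 0.764. The corresponding share was 21.1% in Q7-C replicate 1 and between 12.5% and 17.0% in the other 10 libraries. By the chi-square per degree of freedom of their counts, Q7-T replicate 2 was at 722 and 761 from the other libraries of its group, which were at 57.6 from each other. Q7-C replicate 1 (327 and 459, against 42.8) and Q111-T replicate 2 (209 and 185, against 37.1) also stood apart in their groups, and in Q111-C the values were 19.6 to 32.2. The TPM of the 9 members in Q7-T replicate 2 lay between 16.6% (Gbp5) and 60.5% (Gbp2) of the mean of the other Q7-T libraries, and on the TMM scale between 27.3% and 99.0%. The STHdhQ7 response, the line comparison after treatment, the interaction and the make-up of the family are also given without it. Without Q7-C replicate 1, the number of members called was as with all libraries in each comparison, with Gbp7 at 2.09 and Gbp3 at 1.62 in nontreated cells. On the log2(TPM + 0.5) scale, the median difference between the lines over all genes was 0.341 for treated and 0.274 for nontreated cells (STHdhQ111 above STHdhQ7), against -0.03 and -0.02 after TMM scaling. A ratio of TPM thus overstates a higher level in STHdhQ111 cells relative to the test.

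The labels call the lines neuronal. Of 5 neuronal markers in the table, 2 (Tubb3 and Map2) reached 0.5 TPM in each group, and of 6 markers of striatal medium spiny neurons 0 did so in STHdhQ7 cells and 2 in STHdhQ111 cells. Of the latter 2, Penk was called higher in Q111-C vs. Q7-C (log2 4.88, adjusted p = 0.0295, edgeR) and Ppp1r1b was not called. Tubb3 rose after treatment in both lines (log2 2.29 and 2.77) and was lower in STHdhQ111 cells, by -2.46 without and -1.99 with treatment. Map2 fell after treatment in STHdhQ7 cells (log2 -1.80, adjusted p = 0.00868, edgeR) and was at 0.02 in STHdhQ111 cells, with an interaction of 1.81 (adjusted p = 0.0496, edgeR). In treated cells Map2 was higher in STHdhQ111 (log2 1.12, adjusted p = 0.0223, edgeR). Of 6 astrocyte markers, 2 were tested. Slc1a3 was higher in Q111-C vs. Q7-C (log2 3.18) and fell after treatment in STHdhQ111 cells (log2 -1.75), with an interaction of -1.963 (adjusted p = 0.0109, edgeR). Aldh1l1 was called lower in Q111-C than in Q7-C, where it had 0.364 ± 0.151 TPM, and higher after treatment in STHdhQ111 cells, at 0.0384 ± 0.0665 TPM without and 1.32 ± 0.280 TPM with it (SD, n = 3). All 7 mesenchymal markers were expressed, and their summed level was lower after treatment, at 4335 to 4919 TPM in Q7-C, 3350 to 3756 TPM in Q7-T, 3672 to 3832 TPM in Q111-C and 1504 to 1624 TPM in Q111-T. Vim, the most abundant of them, was not called after treatment in edgeR. It was at log2 -0.22 in STHdhQ7 (adjusted p = 0.667, edgeR) and -0.95 in STHdhQ111 cells (adjusted p = 0.00403, edgeR). Acta2 was called after treatment in neither line. The collagen genes Col1a1, Col1a2 and Col3a1 were called lower after treatment in both lines, and Pdgfrb in STHdhQ111 cells (edgeR). Acta2 and Tagln were called lower in STHdhQ111 than in STHdhQ7 cells with and without treatment, and the 3 collagen genes higher. Vim was called lower in Q111-T vs. Q7-T (log2 -1.07, adjusted p = 0.00104, edgeR), but not without Q7-T replicate 2. Of 7 macrophage or microglia markers, 2 (Cd68 and Tmem119) reached 0.5 TPM in every group, with sums of 17.8 to 20.6 TPM in nontreated and 11.9 to 18.2 TPM in treated STHdhQ7 cells. The sums were 31.9 to 37.0 TPM in nontreated and 46.0 to 62.5 TPM in treated STHdhQ111 cells, and both genes went opposite ways there. Cd68 rose from 15.2 ± 1.19 to 48.8 ± 8.58 TPM and Tmem119 fell from 18.7 ± 1.40 to 5.13 ± 0.558 TPM (SD, n = 3). Tmem119 was also called lower in STHdhQ7 cells (log2 -1.78). Between the treated lines, Cd68 was called higher in STHdhQ111 cells (log2 1.55, adjusted p = 0.00688, edgeR) and Tmem119 was not called. The part of all these markers in the Gbp levels was not tested. The pan-leukocyte marker Ptprc was at 0 in all libraries of Q7-T, Q111-C and Q111-T. In bulk samples such as these, fewer cells that express a gene and less RNA per cell cannot be told apart.

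Treatment with IFNγ/LPS raised all 9 Gbp genes in both lines. In TPM, a unit corrected for transcript length and library size, the summed level of the members went from 19.0 ± 8.64 in Q7-C to 2008 ± 787 in Q7-T, and from 48.8 ± 2.64 in Q111-C to 3264 ± 466 in Q111-T (mean ± SD, n = 3 per group). Without replicate 2, the Q7-T libraries had 2417 and 2507 TPM. Gbp2, a prenylated GTPase that is recruited to the vacuoles of microbes, was the most abundant member in every library. Gbp8 had the lowest mean in every group.

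Gbp2 had 7.31, 14.6 and 8.41 TPM in the 3 Q7-C libraries and 1255, 797 and 1381 TPM in the 3 Q7-T libraries. In STHdhQ111 cells it had 21.7, 25.8 and 21.8 TPM without treatment and 1612, 1533 and 1848 TPM with treatment. Every treated library lay far above every nontreated one, and nontreated STHdhQ111 cells also lay above nontreated STHdhQ7 cells. The log2 fold change of Gbp2 was 7.001 in Q7-T vs. Q7-C (SE 0.254, adjusted p = 1.63e-07) and 6.27 in Q111-T vs. Q111-C (SE 0.246, adjusted p = 7.97e-08). These p-values come from the quasi-likelihood test of edgeR, adjusted by the Benjamini-Hochberg method over every gene tested.

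Gbp3, a neighbour of Gbp2 in the cluster, had 2.15, 6.32 and 3.39 TPM in Q7-C, and 474, 92.3 and 451 TPM in Q7-T. In Q111-C it had 15.5, 15.7 and 19.5 TPM, and in Q111-T it had 932, 752 and 1094 TPM. The low value in Q7-T is that of replicate 2, and even this library lay above all nontreated ones. Gbp7 had 0.301, 0.878 and 0.469 TPM without and 76.7, 19.3 and 65.2 TPM with treatment in STHdhQ7 cells. It had 2.69, 3.40 and 3.64 TPM in Q111-C and 148, 139 and 180 TPM in Q111-T, so that its 4 groups did not overlap.

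Gbp5, which promotes assembly of the Nlrp3 inflammasome, was nearly silent without treatment, with 0.225, 0.627 and 0.153 TPM in Q7-C and 0.295, 0.409 and 0.564 TPM in Q111-C. After treatment it had 45.2, 6.99 and 39.0 TPM in Q7-T and 100.97, 76.5 and 105 TPM in Q111-T. At these low levels no difference between the nontreated lines was called (log2 0.03, SE 0.541, edgeR), and the treated groups did not overlap.

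On chromosome 5, Gbp4 had 1.03, 2.19 and 0.902 TPM without and 190, 68.9 and 191 TPM with treatment in STHdhQ7 cells. It had 1.58, 1.60 and 0.273 TPM in Q111-C and 63.0, 47.5 and 79.0 TPM in Q111-T. Replicates 1 and 3 of Q7-T lay above all Q111-T libraries, and replicate 2 lay within the range of the latter. Gbp8 had 15.7, 8.03 and 17.5 TPM in Q7-T and 6.70, 3.90 and 5.93 TPM in Q111-T, which do not overlap. In nontreated cells its estimated counts summed to 33 over the 3 Q7-C libraries and to 31 over the 3 Q111-C libraries, 1 of which was listed at 0. If 1 read pair stands for about 4 counts, as the spacing of low counts was read, 12 counts are about 3 read pairs, and the fold changes of Gbp8 after treatment are imprecise.

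The other members of the cluster rose in the same way. Gbp9 ranged from 0.786 to 1.73 TPM in Q7-C, from 40.8 to 143 TPM in Q7-T, from 1.26 to 1.75 TPM in Q111-C and from 48.3 to 112 TPM in Q111-T. Gbp6, which joins the coat of Gbp proteins on vacuoles, ranged from 0.640 to 1.92 TPM in Q7-C and from 55.2 to 160 TPM in Q7-T. In STHdhQ111 cells it ranged from 1.53 to 1.97 TPM without and from 169 to 238 TPM with treatment. Gbp10 ranged from 0.261 to 0.497 TPM in Q7-C, from 11.8 to 70.5 TPM in Q7-T, from 0.339 to 0.858 TPM in Q111-C and from 44.0 to 82.4 TPM in Q111-T. The overlapping gene Gm43302 had 120 ± 51.7 TPM in Q7-T and 167 ± 33.7 TPM in Q111-T (SD, n = 3), close to the means of Gbp6, and how the reads were split among Gbp6, Gbp10 and Gm43302 was not tested.

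**Figure D1:**
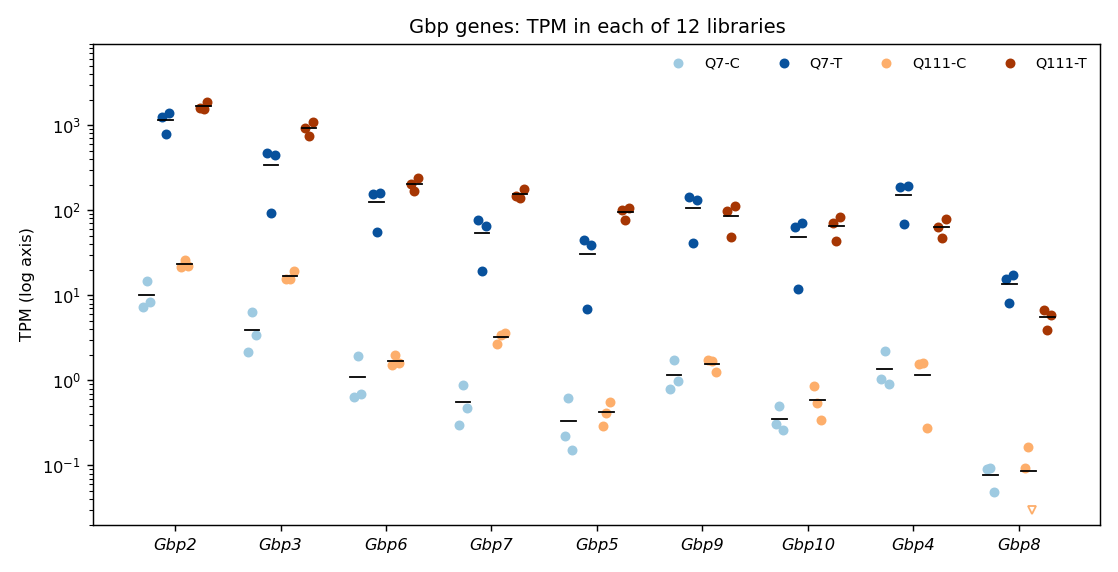
TPM of each Gbp gene (log axis) in each library, by group; points are libraries, bars are means of 3, and the open triangle is the Q111-C library in which Gbp8 is listed at 0, drawn at the bottom. All treated libraries lie above all nontreated ones for each of the 9 genes, from Gbp2 (1533 to 1848 TPM in Q111-T) down to Gbp8 (3.90 to 6.70 TPM).

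All 9 members were called higher in Q7-T vs. Q7-C, where 2.93% of all genes tested were called higher, and all 9 in Q111-T vs. Q111-C, where 8.28% were. None was called lower (1.11% and 2.96% of all genes tested were). A call needed a 2-fold change or more with an adjusted p below 0.05. For each member, the groups of 3 did not overlap in TPM in either line (5.55% and 19.8% of all genes tested were higher, and 8.9% and 29.8% lower, without overlap), and the two-sided exact permutation test gave p = 0.1, the smallest that 3 libraries against 3 allow. In STHdhQ7 cells the log2 fold changes ran from 6.51 (Gbp3) to 7.11 (Gbp10), apart from 7.50 for the thinly counted Gbp8, and their median was 6.87, beside 0.003 over all genes tested. In STHdhQ111 cells they ran from 5.68 (Gbp7) to 7.87 (Gbp5), with a median of 6.03, beside -0.005 over all genes tested. On a linear scale, these are 91.1-fold to 138-fold (without Gbp8) and 51.3-fold to 234-fold. The largest adjusted p among the 9 was 6.32e-05 in STHdhQ7 and 1.15e-04 in STHdhQ111 cells, both from edgeR and both for Gbp8. Without Q7-T replicate 2, all 9 remained called in STHdhQ7 cells, with log2 fold changes from 6.86 (Gbp9) to 7.61 (Gbp8). Without Q7-C replicate 2, Gbp5 was at 7.20 in STHdhQ7 cells, and Gbp8 was at 6.84 and 5.40 in STHdhQ111 cells without Q111-C replicate 2 and replicate 3. On the log2(TPM + 1) scale, which understates the change of low genes, the estimates ran from 3.71 (Gbp8) to 6.70 (Gbp2) in STHdhQ7 cells, with Gbp5 at 4.22, and from 2.56 (Gbp8) to 6.24 (Gbp6) in STHdhQ111 cells.

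**Figure D2:**
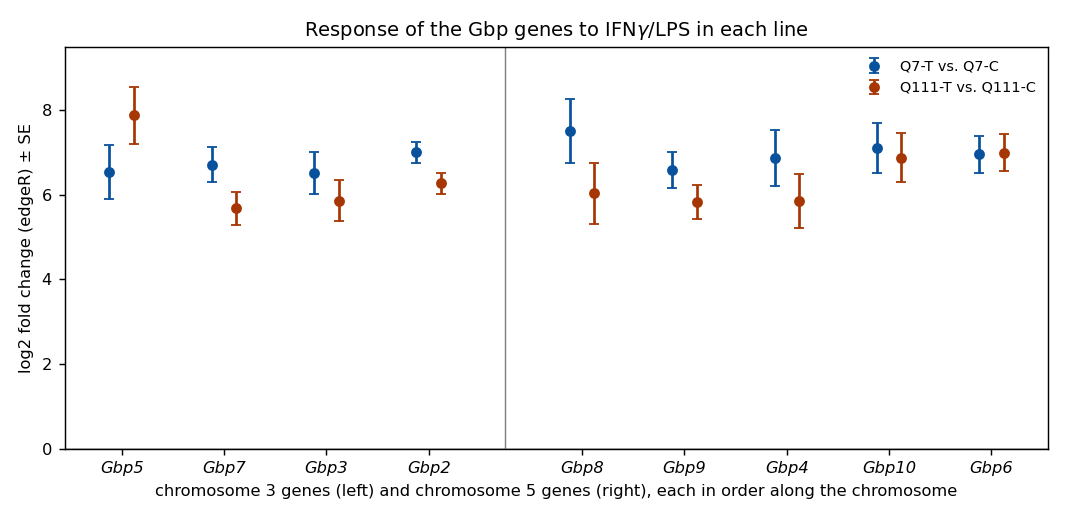
Log2 fold change ± SE of each Gbp gene after IFNγ/LPS treatment in STHdhQ7 cells (blue) and STHdhQ111 cells (brown), with 3 libraries per group and genes in chromosomal order. All 18 estimates lie between 5.68 and 7.87, and Gbp5 in STHdhQ111 cells is the highest.

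Without treatment, Gbp3 and Gbp7 were higher in STHdhQ111 cells, and no member was called lower (7.61% of all genes tested were). Gbp7 was higher by 2.28 on the log2 scale in Q111-C vs. Q7-C (SE 0.346, adjusted p = 5.47e-04, edgeR), which is 4.85-fold. Gbp3 was higher by 1.83 (SE 0.400, adjusted p = 0.00600, edgeR), which is 3.54-fold. These calls, 2 of 9 members, stand beside 7.62% of all genes tested called higher in this comparison, and both held in every alternative tried. Gbp2 differed by 0.89 (SE 0.198, adjusted p = 0.00649, edgeR), under the 2-fold threshold. It was past the threshold with limma on log2(TPM + 0.5), at 1.21, and without Q7-C replicate 2, at 1.20. For the other 6 members the log2 fold change lay between -0.56 (Gbp4, SE 0.530) and 0.39 (Gbp10, SE 0.498), with no adjusted p under 0.05 in the edgeR test. With 1 library left out, Gbp6 ranged from 0.12 to 0.98, Gbp10 from 0.02 to 0.71 and Gbp4 from -0.85 to -0.06. In TPM, Gbp2, Gbp3 and Gbp7 were higher without overlap (3 of 9 members, beside 38.8% of all genes tested).

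After treatment, the members differed between the lines in opposite directions. Gbp3 and Gbp7 on chromosome 3 were higher in Q111-T vs. Q7-T, with log2 fold changes of 1.18 (SE 0.390, adjusted p = 0.0331) and 1.25 (SE 0.325, adjusted p = 0.0108) in the edgeR test. Gbp4 and Gbp8 on chromosome 5 were lower, by -1.58 (SE 0.528, adjusted p = 0.0350) and -1.68 (SE 0.560, adjusted p = 0.0340) in the same edgeR test. Over all genes tested, 13.3% were called higher and 11.2% lower in this comparison, so that such calls were common among all genes, and 2 of 9 members were called in each direction. Gbp5 was at 1.37 (SE 0.506, adjusted p = 0.0509, edgeR), just above the threshold of 0.05, and Gbp9, the neighbour of Gbp4 and Gbp8, was at -0.62 (SE 0.329, adjusted p = 0.161, edgeR). Gbp2, Gbp6 and Gbp10 were at 0.16, 0.40 and 0.17, and no call was made.

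Calls between the lines after treatment changed when single libraries were left out. Without Q7-T replicate 2, Gbp3 was at 0.81 and Gbp7 at 0.95, both under the 2-fold threshold with adjusted p of 0.0391 and 0.0136 in edgeR, while Gbp4 was at -1.79 and Gbp8 at -1.78 and stayed called. Gbp5 was at 0.98 (adjusted p = 0.0762, edgeR) and Gbp6 at 0.19. Gbp9 was at -0.88 with an adjusted p of 0.0322 (edgeR), under the 2-fold threshold, and Gbp10 changed sign, to -0.22. With any 1 of the Q111-T libraries left out, only Gbp7 was called, while the estimates stayed near those from all libraries. Gbp3 lay between 1.12 and 1.24 (adjusted p from 0.0555 to 0.0836), Gbp4 between -1.69 and -1.47 (adjusted p from 0.0712 to 0.105) and Gbp8 between -1.78 and -1.55 (adjusted p from 0.0814 to 0.102) in edgeR. Without Q7-T replicate 1 or replicate 3, Gbp4 and Gbp8 were not called, at adjusted p of 0.0608 to 0.0807 (edgeR), and without Q7-C replicate 2, Gbp8 had an adjusted p of 0.0501. In the fit of the compared groups alone, Gbp3 was not called, at 1.20 (adjusted p = 0.0729, edgeR). Gbp5 was called with DESeq2, at 1.38 (adjusted p = 0.0174), and with limma on log2(TPM + 0.5), at 1.98 (adjusted p = 0.0171). It was also called with the other pseudocounts, with the stricter filter, with RLE size factors, with counts divided by 4 and without Q7-C replicate 2, Q7-C replicate 3 or Q7-T replicate 1. Gbp4 was not called with limma at any of the 3 pseudocounts, with adjusted p from 0.0574 to 0.166.

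**Figure D3:**
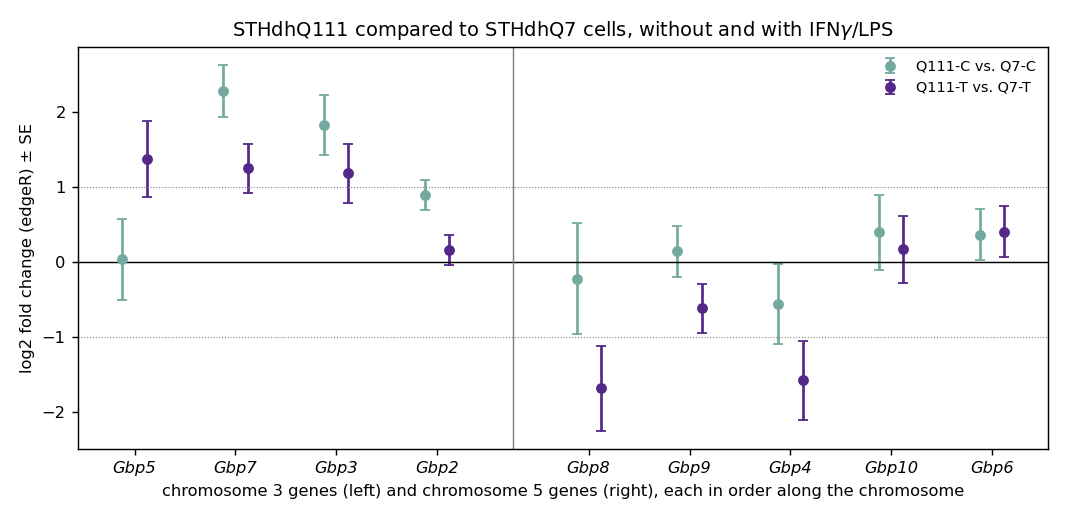
Log2 fold change ± SE of STHdhQ111 compared to STHdhQ7 cells for each Gbp gene, nontreated (green) and after IFNγ/LPS (purple), in chromosomal order with chromosome 3 on the left; dotted lines mark a 2-fold change. Gbp7 and Gbp3 lie above the upper line in both states, and Gbp4 and Gbp8 lie below the lower line after treatment. Gbp5, which was not called, also lies above the upper line after treatment.

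In TPM, 5 members (Gbp2, Gbp3, Gbp5, Gbp6 and Gbp7) were higher in treated STHdhQ111 cells without overlap and Gbp8 was lower, beside 33.9% and 12.5% of all genes tested. The ranges came close for Gbp6, whose lowest Q111-T library had 169 TPM and whose highest Q7-T library had 160 TPM. The responses and line comparisons share groups and are not independent of one another.

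Whether the response itself differed between the lines was tested by the interaction of cell line and treatment. No member was called, by edgeR or by DESeq2, beside 3.52% of all genes tested called higher and 1.2% called lower. At an unadjusted p under 0.05 there were 2 members, Gbp2 (log2 -0.73, adjusted p = 0.166, edgeR) and Gbp7 (log2 -1.03, adjusted p = 0.244, edgeR), both with the smaller estimate in STHdhQ111 cells. The largest estimate in size was that of Gbp8, at -1.46 (SE 0.926, adjusted p = 0.419, edgeR), followed by Gbp5, at 1.34 (SE 0.738, adjusted p = 0.346, edgeR), and Gbp4 was at -1.01. With 1 library left out, Gbp8 lay between -2.09 and -0.64 and Gbp5 between 0.65 and 1.71. The standard errors of the 9 interaction estimates ran from 0.277 (Gbp2) to 0.926 (Gbp8). With 1 library left out, a member was called in 3 cases: Gbp2 at -1.02 without Q7-C replicate 2, Gbp7 at -1.33 without Q7-T replicate 2 and Gbp8 at -2.09 without Q111-C replicate 3, in which Gbp8 was listed at 0.

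The make-up of the family does not depend on how libraries are scaled to one another. Gbp2 contributed 54.2% of the summed TPM of the 9 members in nontreated and 59.8% in treated STHdhQ7 cells, and 47.3% and 51.2% in STHdhQ111 cells. Without Q7-T replicate 2, the share of Gbp2 in treated STHdhQ7 cells was 51.9% and 55.1% in the remaining libraries. The chromosome 3 members together contributed 78.9% ± 1.92 in nontreated and 79.0% ± 3.65 in treated STHdhQ7 cells, and 89.5% ± 2.95 and 87.1% ± 1.51 in STHdhQ111 cells (SD, n = 3). The STHdhQ111 libraries, nontreated and treated, thus had a larger share from chromosome 3 than the STHdhQ7 libraries, and within each line the ranges with and without treatment overlapped. Without Q7-T replicate 2 they no longer did so in STHdhQ7 cells, where the treated libraries had 76.6% and 77.3% and the lowest nontreated one 77.8%.

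The shares of single members also differed between the lines. Gbp4 made up 5.89% to 8.01% of the family in Q7-C and 6.26% to 7.85% in Q7-T, but 0.557% to 3.43% in Q111-C and 1.69% to 2.11% in Q111-T. Gbp3 made up 16.8% to 22.1% in Q7-C and 8.39% to 19.6% in Q7-T, and 30.6% to 39.8% in Q111-C and 26.7% to 29.2% in Q111-T. For Gbp3, Gbp4, Gbp7 and Gbp9 the share differed between the lines without overlap both with and without treatment (exact permutation test, p = 0.1, the smallest possible). Shares add up to a fixed total, so that a larger share of any member lowers those of the others. In TPM, Gbp4 and Gbp9 overlapped between the lines in both states. In edgeR, Gbp9 was called between the lines in neither state and Gbp4 after treatment only. The share of Gbp5 moved with treatment, from between 0.641% and 1.15% in Q111-C to between 2.72% and 3.12% in Q111-T, while in STHdhQ7 cells the ranges of Gbp5 overlapped. In STHdhQ111 cells the share of Gbp6 was likewise higher after treatment without overlap, by 2.75 percentage points in the mean, and those of Gbp3 and Gbp7 were lower, with differences of -6.46 and -1.87 points. In STHdhQ7 cells Gbp9 was the member whose share did not overlap, with a difference of -1.24 points (exact permutation test, p = 0.1 for each). Without Q7-T replicate 2, Gbp10 did not overlap either, with 2.60% and 2.81% in Q7-T and at most 2.40% in Q7-C. In Q7-T replicate 2, Gbp2 alone took 72.4% and Gbp3 8.39%, so that the lower level in this library was not shared evenly by the members.

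**Figure D4:**
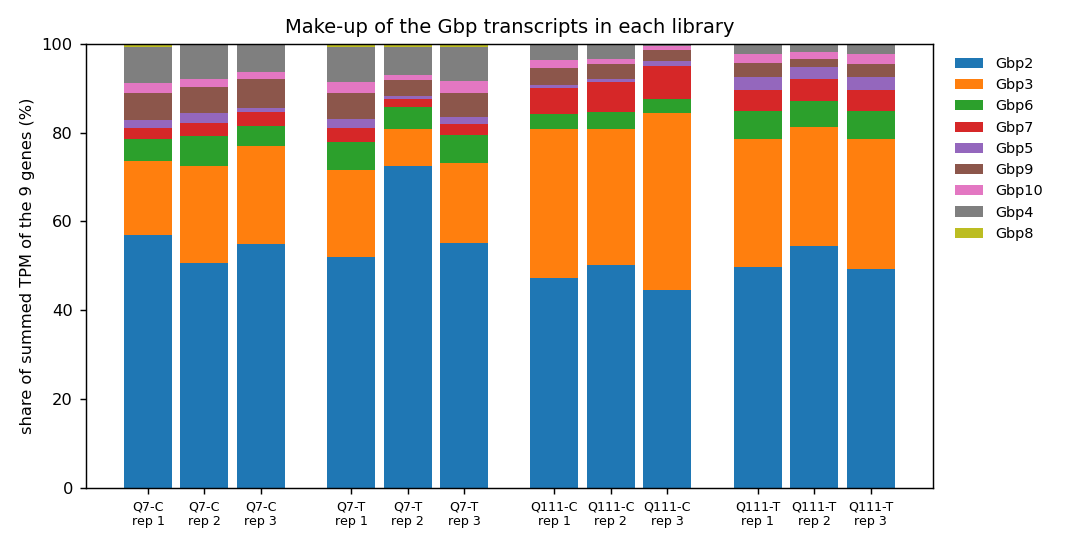
Share (%) of each Gbp gene in the summed TPM of the 9 genes, in each of the 12 libraries (stacked bars reach 100). Gbp2 is the largest part everywhere, Gbp3 is larger and Gbp4 smaller in the STHdhQ111 libraries, and Gbp2 reaches 72.4% in Q7-T replicate 2.

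The order of the levels was Gbp2 above Gbp3 in all 4 groups, without overlap between the neighbouring genes. Below them the order changed between the lines. In Q7-T the third place was held by Gbp4, and neighbours from Gbp3 downwards overlapped in their ranges over the 3 libraries. Within each of these libraries, however, Gbp3, Gbp4, Gbp6, Gbp9 and Gbp7 followed in this order and Gbp10 was above Gbp5, whereas Gbp7 was above Gbp10, and Gbp5 above Gbp8, in 2 of 3. In Q111-T the third place was held by Gbp6, followed by Gbp7, Gbp5, Gbp9, Gbp10, Gbp4 and Gbp8, and Gbp4 stood next to last there. Among these, Gbp6 and Gbp7, Gbp5 and Gbp9, Gbp9 and Gbp10, and Gbp10 and Gbp4 overlapped.

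The remaining Gbp genes of the mouse in the table, Gbp2b on chromosome 3 and Gbp11 on chromosome 5, rose alongside. Gbp2b had log2 fold changes of 7.06 in STHdhQ7 and 6.66 in STHdhQ111 cells and reached 746 ± 302 TPM in Q7-T and 810 ± 82.5 TPM in Q111-T (SD, n = 3), with 884 and 955 TPM in Q7-T without replicate 2. Gbp11, whose nontreated counts were as low as those of Gbp8, had 5.93 and 6.78 and reached 5.33 ± 1.62 and 12.6 ± 2.97 TPM. Neither was called between the lines. The 5 genes outside the members whose log2(TPM + 0.5) tracked the mean of the members most closely over the 12 libraries were Gm43302 (Pearson r 0.998), Gm4841 (0.997), Gbp2b (0.996), Iigp1 (0.995) and Ifi47 (0.994). Gm43302 shares 50-base stretches with Gbp6 and Gbp10, and all 12 points differ mainly by treatment.

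The genes that induce the family were counted from a list of 17 receptors, kinases and transcription factors. In each line, 8 of the 17 were called higher after treatment and 0 lower. Over all genes tested, 2.93% were called higher in STHdhQ7 and 8.28% in STHdhQ111 cells. The median log2 fold change of the list was 0.57 in STHdhQ7 and 0.81 in STHdhQ111 cells (0.80 and 0.81 without Q7-T replicate 2). Over all genes tested it was 0.003 and -0.005. Irf8, Irf1, Stat2 and Irf9 rose in both lines. Irf9, the DNA-binding part of the complex that type I interferon activates, went from 2.77 ± 0.555 to 16.2 ± 5.32 TPM in STHdhQ7 cells and from 18.6 ± 3.38 to 70.5 ± 7.83 TPM in STHdhQ111 cells (SD, n = 3). Irf1, which binds ISRE, rose by 4.15 and 3.61 on the log2 scale. In the interaction, 3.52% of all genes tested were called higher and 1.2% lower. Irf2, a related factor of the same family, was the 1 gene of the list called there (log2 1.47, adjusted p = 0.0238, edgeR), with a larger rise in STHdhQ111 cells. Without Q7-T replicate 2 it stayed called (log2 1.21), and Stat3 was called there too, at -1.496 (adjusted p = 0.00205, edgeR). In nontreated cells, 7 of the 17 were higher in Q111-C and 0 lower, beside 7.62% and 7.61% of all genes tested. Among the 7 were Irf9 (log2 2.43), Cd14 (2.04) and Tlr4 (1.49), the LPS receptor. In Q111-T vs. Q7-T, 5 of 17 were higher and 0 lower, beside 13.3% and 11.2% of all genes tested. The 5 were Cd14 at 2.17, Tlr4 at 1.85, Irf9 and Irf2 at 1.75 each and Ifngr2, a chain of the IFNγ receptor, at 1.20. Without Q7-T replicate 2, 6 of 17 were higher, with Ly96 added.

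Genes that act with Gbp proteins were counted from a list of 12, of which 10 were tested. In each line 9 of the 10 rose and 0 fell, with median log2 fold changes of 6.69 in STHdhQ7 and 5.26 in STHdhQ111 cells. Over all genes tested, 2.93% were called higher in STHdhQ7 and 8.28% in STHdhQ111 cells. The 9 that rose were the 6 IRG genes (Irgm1, Irgm2, Igtp, Iigp1, Tgtp1 and Tgtp2), the inflammatory caspases Casp1 and Casp4 and the pore-forming Gsdmd. Casp4, which encodes the LPS-sensing caspase-11, went from 0.132 ± 0.0275 to 11.4 ± 1.40 TPM in STHdhQ7 cells and from 0.595 ± 0.186 to 17.0 ± 0.662 TPM in STHdhQ111 cells (SD, n = 3). Aim2, a sensor of cytosolic DNA, was the tested gene without a call after treatment, and it had 3.72 ± 0.160 TPM in nontreated STHdhQ111 cells, where STHdhQ7 cells had 0.0180 ± 0.0156 TPM (SD, n = 3). Casp4, Aim2 and Irgm2 were the 3 called higher in Q111-C vs. Q7-C, beside 7.62% of all genes tested. Among treated cells, Aim2 was higher in Q111-T (log2 5.40, adjusted p = 0.00148, edgeR) and Casp1 lower (log2 -3.43, adjusted p = 0.00459, edgeR). These calls, 1 of 10 in each direction, stand beside 13.3% and 11.2% of all genes tested. In the interaction, Casp4 was called, with a smaller rise in STHdhQ111 cells (log2 -1.71, adjusted p = 0.0398, edgeR). It was 1 of 10, beside 1.2% of all genes tested called lower there. DESeq2 called Casp4, Igtp and Irgm1 there, at -1.73, -1.16 and -1.04, and edgeR without Q7-T replicate 2 called Casp4 (-1.31) and Irgm1 (-1.23). Nlrp3 and Pycard did not pass the filter in these cells.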

How the data were processed

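RNA-seq data of 12 libraries (4 groups of 3) were analysed from the one deposited table of 29428 genes. According to the study's methods, the authors trimmed reads with Cutadapt, aligned them with HISAT2 to GRCm38 and ran StringTie for expression values. The authors deposited TPM values and estimated counts per gene and library. The estimated counts were deposited as whole numbers without normalization; low counts were 1.39 to 1.83 times as frequent at multiples of 4 as at other even numbers, from which 1 read pair was taken to stand for about 4 counts. Reads carry no molecular identifiers, so depth limits cover counting error only.

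A gene entered the tests if 3 or more libraries reached 0.5 TPM (16127 genes). The counts were scaled by TMM and tested with edgeR 4.0.16 (quasi-likelihood, R 4.3.3) in one fit with a mean per group; DESeq2 1.42.0 and limma 3.58.1 were alternatives, as were other filters, scalings, pseudocounts, the replicate block and leaving out each library. Counts over the gene lists and the summed levels without Q7-T replicate 2 were added after seeing the data. Standard errors were derived from the F statistic. TPM of single genes was compared by two-sided exact permutation tests in scipy 1.17.1. The procedure was tested on simulated counts. Columns for all 12 samples were matched by name. The 9 members are all named; of the lists, those with the largest changes. One gene of the inducer list is not reported here and was left out of its counts. The members, gene lists and motifs were chosen with earlier results of these data known. Library sums and the replicate check (smallest chi-square per degree of freedom between replicates 19.6) gave no sign of a library deposited more than once.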

Additional observations from a re-analysis of the deposited data

How the results depend on the processing

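The 9 members stayed called higher after treatment in both lines under all 22 alternatives, including the log2(TPM + 1) scale, on which the estimates were smaller (medians 5.44 and 5.37 in STHdhQ7 and STHdhQ111 cells, against 6.87 and 6.03). In Q111-T vs. Q7-T, where 4 members were called, the count was 2 with the replicate block (Gbp7 and Gbp4, with Gbp3 and Gbp8 at adjusted p of 0.0531 and 0.0529 in edgeR), 3 in the fit of the compared groups alone (without Gbp3) and between 1 and 5 with 1 library left out. Deviations of same-numbered libraries from their group means correlated between -0.582 and 0.450, and those of differently numbered libraries between -0.592 and 0.644. Since single libraries stand apart in 3 of the 4 groups, these correlations cannot decide whether the numbers pair the samples. The replicate block changed no other call. In the interaction, the count lay between 0 and 1 with 1 library left out. The estimates that changed sign were not called with all libraries in the edgeR fit without a block, although Gbp7 was called in the interaction without Q7-T replicate 2: Gbp5 in Q111-C vs. Q7-C (-0.32 to 0.74 with 1 library left out), Gbp8 in Q111-C vs. Q7-C (0.012 and 0.0089 with limma on log2(TPM + 0.5) and log2(TPM + 1), -1.02 to 0.43 with 1 library left out), Gbp10 in Q111-T vs. Q7-T (-0.22 to 0.50), and in the interaction Gbp6 (-0.012 with the replicate block, -0.56 to 0.30 with 1 library left out), Gbp7 (0.26 with limma on log2(TPM + 1)) and Gbp10 (0.43, 0.22 and 0.52 with limma on log2(TPM + 0.5), log2(TPM + 0.1) and log2(TPM + 1), -0.62 to 0.17 with 1 library left out). The cause was not tested. With 3 libraries per group and a library that stands apart in 3 of the 4 groups, differences between the lines are less certain than the response to treatment, and the deep estimated counts do not change this.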

Other observations

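Gbp2 and Gbp5 are among the Gbp proteins that carry a prenyl lipid anchor, and the Atg8 conjugation system helps to load Gbp proteins on membranes. Over all genes tested, 2.93% were called higher after treatment in STHdhQ7 and 8.28% in STHdhQ111 cells, and 1.11% and 2.96% lower. Of 7 enzymes of prenylation, 0 were called higher and 0 lower after treatment in either line, with median log2 fold changes of 0.06 in STHdhQ7 and -0.15 in STHdhQ111 cells. The edgeR test gave an unadjusted p under 0.05 for 1 of the 7 in STHdhQ7 and for 3 in STHdhQ111 cells, and DESeq2 called 0 in either line. The 1 in STHdhQ7 cells was Rabggta, at log2 0.97 (adjusted p = 0.0324, edgeR), just under the 2-fold threshold. Of 9 genes of the conjugation system (among them Atg5, Atg7 and Map1lc3b), 0 were called in any comparison by edgeR or DESeq2, with 1 or 2 at an unadjusted p under 0.05 (edgeR) in each. Some passed the adjusted threshold in edgeR under a 2-fold change. Gabarapl1 was at log2 0.56 in Q7-T vs. Q7-C (adjusted p = 0.0434) and 0.86 in Q111-C vs. Q7-C (adjusted p = 9.05e-04). Atg12 was at 0.48 in Q111-T vs. Q111-C (adjusted p = 0.0282), 0.44 in Q111-C vs. Q7-C (adjusted p = 0.0363) and 0.70 in Q111-T vs. Q7-T (adjusted p = 0.00203). Fntb, a subunit of farnesyltransferase, was lower in Q111-T vs. Q7-T (log2 -1.05, adjusted p = 4.43e-04, edgeR). Fnta, the other subunit of farnesyltransferase, was not called there, at log2 -0.33 (adjusted p = 0.245, edgeR). In TPM, a scale that overstates higher levels in STHdhQ111 cells, Fnta was at 59.7 ± 4.17 in Q7-T and 65.9 ± 2.76 in Q111-T.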
